A study of Mus musculus with 8 samples.

Results

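The effectors of the integrated stress response described here are 10 genes, chosen by symbol and with earlier results of these data known: Atf4, Atf5, Atf3, Ddit3, Trib3, Nupr1, Chac1, Ppp1r15a, Sesn2 and Ddit4. All 10 were found among the 33212 genes of the count table, and all 10 were among the 15291 genes with enough counts to be tested. Levels of RNA were measured in the liver of 8 mice, 4 with a deletion of Nnmt in hepatocytes and 4 controls, with 1 library per mouse. In liver of Nnmt KO mice, 7 of the 10 members had a mean between 29.7% and 68% of the control mean, whereas Ppp1r15a, Sesn2 and Ddit4 had means between 91.3% and 128% of it.

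The integrated stress response begins when a kinase of the translation factor eIF2 is switched on by unfolded protein in the endoplasmic reticulum, lack of amino acids, lack of haem or double-stranded RNA. Phosphorylated eIF2 slows translation in general, while the mRNA of the transcription factor ATF4, which carries upstream reading frames, is translated more. ATF4 then acts on genes of amino acid supply, on further transcription factors such as CHOP (Ddit3), ATF5 and ATF3, and on genes that shut the response down again. As the step from eIF2 to ATF4 is one of translation, Atf4 mRNA is not a measure of ATF4 protein. RNA was the only readout used here.

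The Nnmt KO mice (labelled Nnmt LKO) were Alb-Cre::Nnmt flox/flox mice, and the control mice were Nnmt flox/flox mice, which the sample labels call WT. The labels give C57BL/6 as the strain of both. All 8 mice were males kept for 8 weeks on a diet without methionine and choline (MCD), which damages the liver, so there was no group on a normal diet, and no value here shows what the diet itself did. Age is not given in the sources used here. Alb-Cre acts in hepatocytes, so that other cells of the liver keep Nnmt. Mice of each genotype are given the letters a to d in the order of the table, and a shared letter does not pair mice across genotypes.

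Total counts per library were between 75020072 and 87934362, and 3 counts stood for at most 0.04 CPM (counts normalized to a common library size, below also by edgeR's TMM factors). Library a of the Nnmt KO mice stood apart, with a TMM factor of 1.21 against 0.876 to 1.06 in the other 7 libraries. For some values the result without it is also given, but not for every gene or relation. The targeted gene Nnmt, which encodes nicotinamide N-methyltransferase, was at 31.8, 44.8, 68.9 and 83 CPM in Nnmt KO mice a to d and at 112, 224, 134 and 84.9 CPM in control mice a to d. All Nnmt KO mice were below all control mice, but Nnmt KO mouse d and control mouse d nearly met. The Nnmt KO mean was 41.2% of the control mean (log2 difference -1.28, SE 0.33). By edgeR's quasi-likelihood test Nnmt was not called (adjusted p = 0.123, Benjamini-Hochberg over all tested genes). It passed an adjusted p of 0.05 in 1 of 12 alternatives, with adjusted p of 0.00467 to 0.296 over them. Of the listed hepatocyte markers, 4 were matched, among them Alb and Apoa1, and their summed level was 81886 to 121363 CPM in control mice and 68944 to 116983 CPM in Nnmt KO mice, the lowest in Nnmt KO mouse a. Alb made up most of each sum. The log2 difference was 0.05 (SE 0.25) for Alb, -0.01 (SE 0.18) for Ttr, -0.40 (SE 0.24) for Apoa1 and -0.20 (SE 0.19) for Ahsg.

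Promoters are shown for those members that hold the letters of the element to which ATF4 and a C/EBP factor bind together, as 3 of these members have the lowest Nnmt KO means relative to control and the fourth is Atf3. The element was searched as TGATGNAA on both strands, from 250 bases before to 50 bases after each start site in RefSeq's promoters of GRCm38.p6. It was found in 4 of the 10 members, against 3.97% of 32851 promoters and 4.51% of 27025 genes. Nothing is read from this share, as the members were chosen as genes of a response that runs through ATF4. Nor is anything read from the rank of their means, which come from the contrast that the members were proposed from. All 4 matches read on the strand opposite to the gene, so the capitals below show the element's reverse complement. The first 3 sequences are the 250 bases before the start, and the last is a stretch of 30 bases around the match, which lies from 15 to 22 bases after RefSeq's start of Trib3, just upstream of GENCODE's.
Nupr1, chr7:126625471-126625720, minus strand, match at -110 to -103: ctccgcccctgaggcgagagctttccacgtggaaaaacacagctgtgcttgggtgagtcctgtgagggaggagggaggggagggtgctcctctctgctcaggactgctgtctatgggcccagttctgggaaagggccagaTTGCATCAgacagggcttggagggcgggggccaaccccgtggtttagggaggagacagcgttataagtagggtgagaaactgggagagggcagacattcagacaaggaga
Chac1, chr2:119350992-119351241, plus strand, match at -193 to -186: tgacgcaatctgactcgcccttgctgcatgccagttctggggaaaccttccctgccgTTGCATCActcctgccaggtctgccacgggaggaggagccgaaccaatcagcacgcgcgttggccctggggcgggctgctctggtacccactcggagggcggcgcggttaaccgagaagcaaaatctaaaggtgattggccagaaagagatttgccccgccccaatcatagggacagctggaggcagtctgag
Atf3, chr1:191183334-191183583, minus strand, match at -110 to -103: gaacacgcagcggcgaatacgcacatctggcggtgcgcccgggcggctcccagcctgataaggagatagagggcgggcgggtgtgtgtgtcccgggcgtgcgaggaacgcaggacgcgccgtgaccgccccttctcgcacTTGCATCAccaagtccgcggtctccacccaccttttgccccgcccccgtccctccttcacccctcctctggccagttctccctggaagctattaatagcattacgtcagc
Trib3, chr2:152344028-152344057, minus strand: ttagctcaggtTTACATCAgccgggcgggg
A match is a stretch of letters and not a measured binding site. Atf3 and Nupr1 have further starts upstream of these in GENCODE, and only RefSeq's were searched. The palindrome TGACGTCA, known as the cAMP response element, was found in 1 member, Ppp1r15a, at -12 to -5, and in 1.79% of promoters. The longer endoplasmic reticulum stress element, bound by ATF6, was found in none of the 10 members and in 0.119% of promoters. Over the 314 tested genes with the ATF4 and C/EBP element the median log2 difference was 0.00, and over the 10681 without it 0.01, while a lower level with an unadjusted p under 0.05 was seen in 10.8% and 7.4%.

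The values of the members that follow are differences between the genotypes from which the members were proposed. They are therefore a description, and no p-value is given for a member. Lower and higher refer to the Nnmt KO mice relative to the control mice, and a log2 difference of -1 is a level reduced to 50%.

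Among the transcription factors, Atf4 (chromosome 15, 80255184 to 80257541, GRCm38), the hub of the response, was at 68.3, 80, 85.2 and 79.9 CPM in Nnmt KO mice a to d. In control mice it was at 123, 122, 113 and 103 CPM. The groups did not overlap, and both were narrow, with means of 78.3 ± 7.15 and 115 ± 9.33 CPM (SD, n = 4 each). The log2 difference was -0.56 (SE 0.11), the smallest error among the members.

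Atf5 (chromosome 7, 44812256 to 44816658), a factor whose mRNA also carries upstream reading frames and which is abundant in liver, was at 624, 789, 645 and 697 CPM in Nnmt KO mice. Control mice had 1404, 1062, 823 and 983 CPM. Control mice varied more than Nnmt KO mice, but the groups did not overlap (log2 difference -0.63, SE 0.17). In GENCODE's annotation 4.11% of its exon bases are shared with genes on the other strand, Il4i1 among them. Il4i1 had only 3.09 CPM in control mice.

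Ddit3 (chromosome 10, 127290774 to 127296288) encodes CHOP, which is known for cell death under lasting stress. Its level was 11.8, 9.97, 11.2 and 10.8 CPM in Nnmt KO mice and 20.9, 14.2, 20.8 and 14.3 CPM in control mice. The groups did not overlap, although control mice b and d came close to Nnmt KO mouse a (log2 difference -0.68, SE 0.16). Its exons share 3.97% of their bases with Mars, a tRNA synthetase gene on the other strand, whose log2 difference was -0.15 (SE 0.11). Another stretch, 6.13% of its exon bases, is shared with a second Ddit3 entry of GENCODE on the same strand, for which no row was used here.

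Atf3 (chromosome 1, 191170296 to 191218039), a factor induced by many kinds of stress, was the exception among the factors in that the groups overlapped. Nnmt KO mice had 40.3, 22.5, 23.9 and 19.2 CPM and control mice 50.1, 28.4, 56.5 and 37 CPM. Nnmt KO mouse a was above control mice b and d, and the other Nnmt KO mice were below all control mice. The log2 difference was -0.70 (SE 0.25), about as large as those of Atf5 and Ddit3 with a larger error. Without Nnmt KO mouse a it was -0.98.

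The largest differences were found among the regulators downstream of ATF4 and CHOP. Trib3 (chromosome 2, 152337422 to 152344032) encodes a pseudokinase that binds ATF4 and CHOP and damps their activity, and is also known for its binding to AKT in liver. Its level was 31, 36, 34.8 and 19.1 CPM in Nnmt KO mice and 80.9, 74.1, 85.5 and 72.1 CPM in control mice. Every control mouse had at least 2-fold the level of any Nnmt KO mouse, and the control mice were close together (78.2 ± 6.19 CPM). The log2 difference was -1.37 (SE 0.18).

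Nupr1 (chromosome 7, 126623249 to 126630861), a small nuclear protein gene that ATF4 induces and that acts as a partner of transcription factors under stress, was at 26.2, 8.91, 16.7 and 11 CPM in Nnmt KO mice. Control mice had 63.2, 37.6, 79.5 and 31 CPM. The groups did not overlap, yet each of them spread over more than 2-fold, and Nnmt KO mouse a came near control mouse d. The log2 difference was -1.75 (SE 0.36), and -2.12 without Nnmt KO mouse a.

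Chac1 (chromosome 2, 119351229 to 119354381) encodes an enzyme that breaks down glutathione and is among the genes most typical of the ATF4 and CHOP branch. It was the rarest member, with 2.21, 0.74, 1.18 and 0.36 CPM in Nnmt KO mice, from 202, 60, 99 and 26 counts. In control mice it was at 3.34, 3.7, 5.05 and 3.08 CPM, from 259 to 438 counts. The groups did not overlap, and Nnmt KO mice varied several-fold among themselves. The log2 difference was -1.74 (SE 0.44), and -2.30 without Nnmt KO mouse a.

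The remaining 3 members did not show this pattern. Ppp1r15a (chromosome 7, 45522916 to 45526268) encodes GADD34, which brings a phosphatase to eIF2 and so ends the response. It was at 21.8, 15.2, 21.5 and 13.5 CPM in Nnmt KO mice and at 22.1, 19.5, 19 and 18.4 CPM in control mice. Nnmt KO mice lay both above and below most control mice, and the log2 difference was -0.13 (SE 0.16), or between -0.23 and -0.02 with single mice left out.

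Sesn2 and Ddit4 both restrain the growth kinase complex mTORC1, Sesn2 as a leucine sensor and Ddit4 (REDD1) through the TSC complex. Sesn2 (chromosome 4, 132492032 to 132510501) was at 23.4, 23.3, 22.2 and 18.4 CPM in Nnmt KO mice and at 18.3, 23.2, 16.6 and 20.5 CPM in control mice. Its groups overlapped over most of their range (log2 difference 0.15, SE 0.13), and the difference was 0.25 without control mouse b and 0.08 without control mouse c. Ddit4 (chromosome 10, 59949669 to 59951834) was at 32.3, 21.6, 45.8 and 40.9 CPM in Nnmt KO mice and at 18.9, 42.5, 25.6 and 22.6 CPM in control mice. Control mouse b was the second highest of all 8 mice and Nnmt KO mouse b the second lowest, and the log2 difference was 0.36 (SE 0.27). It was 0.66 without control mouse b, 0.21 without Nnmt KO mouse c and 0.24 without control mouse a.

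**Figure D1:**
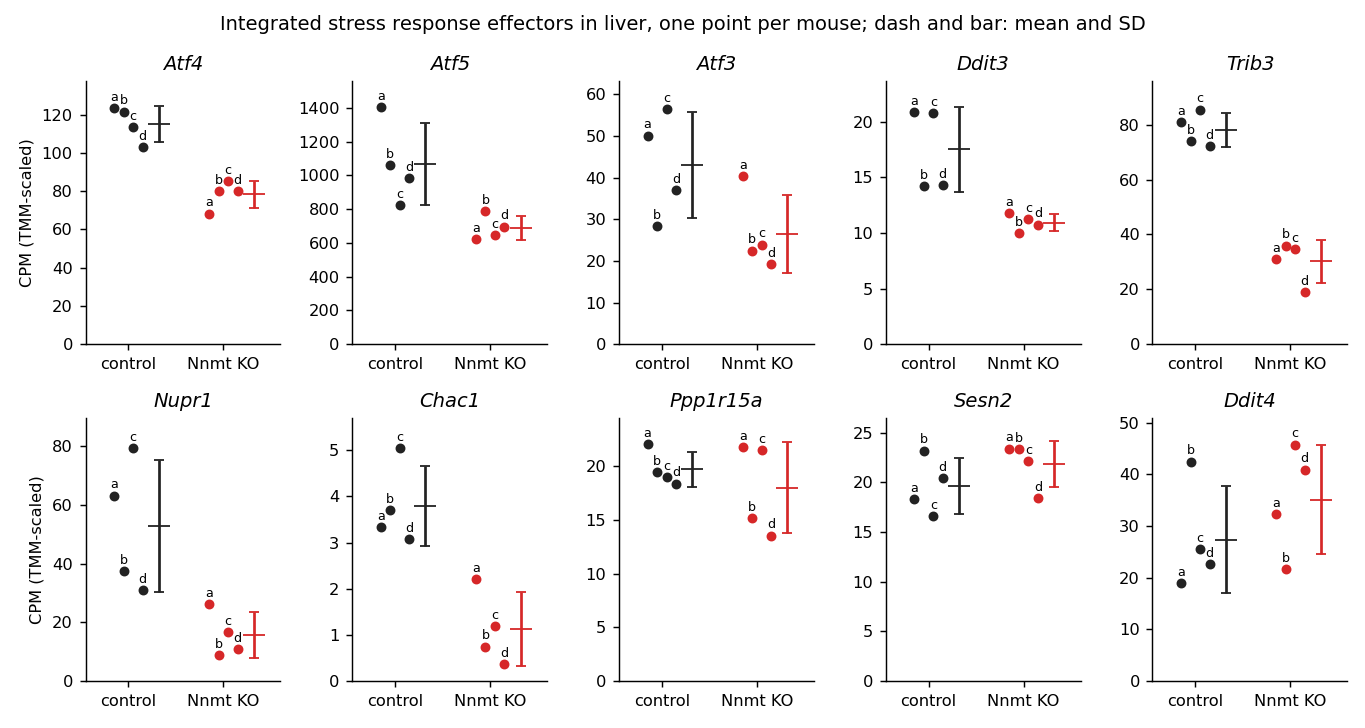
Level of each member (y axis, CPM scaled by TMM, from 0) in each control mouse (black) and Nnmt KO mouse (red), lettered a to d, with the mean and SD beside the points. Atf4, Atf5, Ddit3, Trib3, Nupr1 and Chac1 did not overlap between genotypes, whereas Atf3, Ppp1r15a, Sesn2 and Ddit4 did.

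Levels can be compared between genes only per length, and for this CPM was divided by the length of the gene's exons in kilobases. In control mice Atf5 led with 536 ± 123 CPM per kb (SD, n = 4), far above Atf4 (48.9 ± 3.95) and Trib3 (36.8 ± 2.91). Nupr1 (21 ± 8.98), Atf3 (20 ± 5.89) and Ddit4 (15.6 ± 5.95) followed and did not differ beyond their spread. Ddit3 was at 10.2 ± 2.22 CPM per kb, and its spread met that of Ddit4. Ppp1r15a (6.72 ± 0.55) and Sesn2 (5.65 ± 0.82) were close to each other, with spreads that met. Chac1 was lowest with 2.32 ± 0.53 CPM per kb.

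The order in Nnmt KO mice was not the same. Atf5 (346 ± 36.9 CPM per kb) and Atf4 (33.2 ± 3.03) still led, but Ddit4 (20 ± 6.05) now stood before Trib3 (14.2 ± 3.63) and Atf3 (12.3 ± 4.37), with spreads that met. Nupr1, at 6.24 ± 3.08 CPM per kb, lay among Ddit3 (6.38 ± 0.44), Sesn2 (6.28 ± 0.67) and Ppp1r15a (6.13 ± 1.45), and these 4 did not differ beyond their spread. Chac1 was again lowest with 0.69 ± 0.49 CPM per kb.

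Counted over the list, 8 of the 10 members were lower and 2 were higher, and the median log2 difference was -0.66 against 0.02 over all tested genes. Lower levels of any size were seen in 47.7% of all tested genes. Libraries did not overlap for 6 members, all lower, as for 4.81% of all tested genes (8.16% in either direction). At an unadjusted p under 0.05 by edgeR's quasi-likelihood test, 7 members were lower, as were 7.13% of all tested genes (12.6% in either direction). At an adjusted p under 0.05 (Benjamini-Hochberg over all tested genes), 1 member was lower, Trib3, as were 0.137% of all tested genes (0.32% in either direction). By DESeq2's Wald test 6 members were lower at an adjusted p under 0.05 (Atf4, Atf5, Ddit3, Trib3, Chac1 and Nupr1), as were 1.91% of all tested genes (3.32% in either direction). Nothing is read from these shares, since the members were proposed with this contrast in view. The number of members called by edgeR was 3 without Nnmt KO mouse a (Trib3, Nupr1 and Chac1), where 0.963% of all tested genes were called. It was 0 without Nnmt KO mouse c, control mouse a or control mouse c. In these fits 0.0386%, 0.0385% and 0.0451% of all tested genes were called. Among all tested genes, 0.118% had a lower log2 difference than Nupr1, 0.124% than Chac1 and 0.347% than Trib3. For Atf3, Ddit3, Atf5 and Atf4 this share was between 2.35% and 4.07%, and for Ppp1r15a, Sesn2 and Ddit4 it was 28.5%, 67.7% and 85%.

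**Figure D2:**
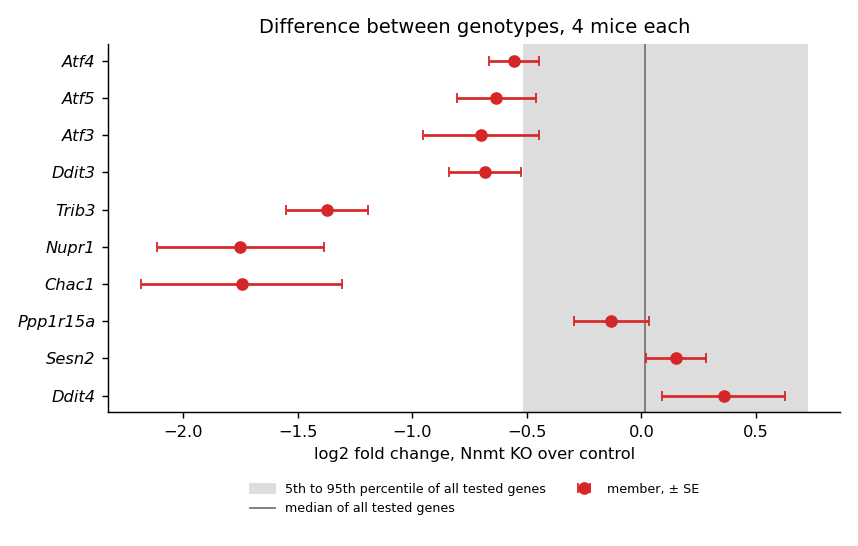
Log2 fold change of each member, Nnmt KO over control (x axis; points with SE, 4 mice each), beside the 5th to 95th percentile of all 15291 tested genes (grey band, -0.51 to 0.72) and their median (line). Members from Atf4 to Chac1 lie below the band, with Trib3, Nupr1 and Chac1 farthest, and Ppp1r15a, Sesn2 and Ddit4 lie inside it.

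Genes beside each other on a chromosome can differ together, so the members were set beside their neighbours. Tested genes within 5 Mb of each member numbered 43 to 205. None of the 136 neighbours of Nupr1, 120 of Trib3 or 102 of Chac1 had a lower log2 difference than the member itself. The region of Nupr1 on chromosome 7 was lower as a whole, with a median of -0.30 over its neighbours, against -1.75 for Nupr1. Atf5 and Ppp1r15a lie close to each other on the same chromosome, each with 126 neighbours whose median was -0.05, and their own log2 differences were -0.63 and -0.13. For Atf4, Atf5, Atf3 and Ddit3, between 2.33% and 6.83% of neighbours had a lower log2 difference.

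**Figure D3:**
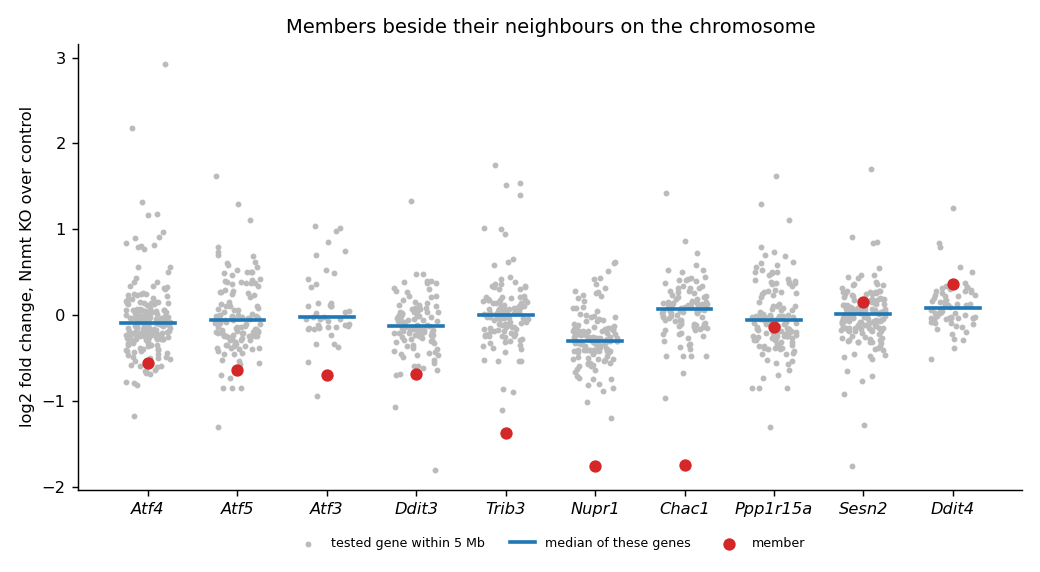
Log2 fold change, Nnmt KO over control (y axis), of each member (red) and of every tested gene within 5 Mb on its chromosome (grey), with the median of these genes (blue line). Trib3, Nupr1 and Chac1 lie below all their neighbours, and the neighbours of Nupr1 have a median of -0.30.

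The other genes of the pathway were taken from 9 lists written from general knowledge, also with earlier results known. They held 106 genes, of which 99 were tested. None of these passed an adjusted p of 0.05 in edgeR, so that no gene below is called changed by that test. At an unadjusted p under 0.05, 21 were lower and 4 were higher, where all tested genes gave 7.13% and 5.45%. DESeq2 called 11 of the 99, of which 10 were lower (Asns, Slc3a2, Cars, Sars, Yars, Fgf21, Bbc3, Cebpa, Eif2b5 and Ern1) and 1 was higher (Creld2). Of all tested genes DESeq2 called 3.32%, with 1.91% lower, and edgeR called 0.32%. Over the 99 tested genes the median log2 difference was -0.10.

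Upstream of the members, the 4 kinases of eIF2 had log2 differences of both signs. Eif2ak3 (PERK), the kinase of the endoplasmic reticulum, was at 34.9 ± 3.43 CPM in controls and at 28.6 ± 3.3 CPM in Nnmt KO mice (log2 difference -0.28, SE 0.12). Eif2ak2 (PKR), which senses double-stranded RNA and is induced by interferon, was at 4.54 ± 1.34 and 7.53 ± 1.71 CPM (0.73, SE 0.23), and Eif2ak4 (GCN2), which senses amino acid lack, differed by -0.12 (SE 0.13). The genotypes overlapped for each of the 4 kinases.

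Among eIF2 and its exchange factor eIF2B, 6 of 8 subunits were lower and 3 of these at an unadjusted p under 0.05, all of eIF2B. Eif2b5, the catalytic subunit, was at 69.5 ± 2.62 CPM in controls and at 54.4 ± 3.78 CPM in Nnmt KO mice (-0.35, SE 0.09), without overlap. Eif2b2 differed by -0.33 (SE 0.11), also without overlap, and Eif2b1 by -0.23 (SE 0.10). The 5 tested regulators of the kinases had log2 differences between -0.13 (Impact, which inhibits GCN2) and 0.21 (Dnajc3, which inhibits PERK), with Nck1 at 0.20. The phosphatase subunits ran from -0.14 (Ppp1ca) to 0.17 (Ppp1cb), and Ppp1r15b, the constitutive paralogue of Ppp1r15a, was at 0.12 (SE 0.13), or 0.22 without Nnmt KO mouse a.

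Of the factors that pair with ATF4 or share its family, Cebpa was the one with an unadjusted p under 0.05 among 14 tested. This factor of hepatocyte identity was at 302, 303, 227 and 241 CPM in control mice and 153, 187, 166 and 187 CPM in Nnmt KO mice. The groups did not overlap (log2 difference -0.63, SE 0.13; DESeq2 adjusted p = 0.00138, with adjusted p up to 0.289 over the alternatives). Cebpb, the partner more often linked to stress, was at 25.8 ± 8.25 and 33.2 ± 16.2 CPM and overlapped (0.36, SE 0.31). Atf7 is named on 2 rows of the table, and the row used was scarce, at 0.28 ± 0.17 CPM in control mice (-0.98, SE 0.73, or -0.57 without control mouse a).

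Genes that ATF4 is known to induce are given by function. For amino acid synthesis and uptake, 14 of 18 were lower, with a median log2 difference of -0.29, 5 of them at an unadjusted p under 0.05. Asns, asparagine synthetase, was at 63.4, 120, 81 and 95.2 CPM in control mice and 44.1, 39.9, 64.7 and 56.1 CPM in Nnmt KO mice. Only control mouse a reached into the Nnmt KO range (-0.81, SE 0.20). Pycr1, of proline synthesis, was at 5.46 ± 1.22 and 3.07 ± 1.42 CPM (-0.83, SE 0.30), and Mthfd2, of mitochondrial folate metabolism, differed by -0.63 (SE 0.30). Without Nnmt KO mouse a these were -1.19 for Pycr1, which edgeR then called (adjusted p = 0.0421, with 0.0421 to 0.628 over the alternatives), and -0.97 for Mthfd2. Psat1, of serine synthesis, differed by -0.60 (SE 0.17), while Phgdh, the first enzyme of that route, was scarce and higher on average (0.61, SE 0.38). Phgdh was at 3.58 CPM in Nnmt KO mouse a and at 1.18, 1.7 and 1.97 CPM in Nnmt KO mice b to d. Control mice a to d had 1.19, 1.2, 2.25 and 0.86 CPM, so the higher mean rested mostly on Nnmt KO mouse a. The log2 difference of Phgdh without that mouse is not given here.

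The tRNA synthetases had the most uniform direction, with 12 of 12 lower, though by little (median -0.17), and 5 of them did not overlap. Cars, which charges cysteine, was at 35.6 ± 3.13 CPM in controls and at 24.6 ± 2.57 CPM in Nnmt KO mice (-0.53, SE 0.11). Yars (tyrosine) differed by -0.48 (SE 0.10) and Sars (serine) by -0.38 (SE 0.11). These 3 were the ones with an unadjusted p under 0.05, and DESeq2 called the same 3.

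The other targets were split, with 8 lower and 8 higher of 16 tested and a median of 0.06. Fgf21, the hormone that liver releases under amino acid stress, was at 32.8, 35.4, 41.5 and 20.7 CPM in control mice and 24.3, 15.9, 14.8 and 17.4 CPM in Nnmt KO mice. Control mouse d lay below Nnmt KO mouse a (-0.85, SE 0.21). Without Nnmt KO mouse a the log2 difference was -1.02, and edgeR called it (adjusted p = 0.0449, with 0.0118 to 0.352 over the alternatives). Adm2, a secreted peptide gene, was at 2.61 ± 0.75 and 1.5 ± 0.42 CPM (-0.80, SE 0.28). Bbc3, which encodes the cell death protein PUMA, differed by -0.78 (SE 0.18). In contrast Tnfrsf10b, the TRAIL receptor gene, was higher without overlap, at 1.6 ± 0.35 CPM in controls and at 3.02 ± 1.39 CPM in Nnmt KO mice (0.91, SE 0.31). Its log2 difference was 0.54 without Nnmt KO mouse a. Vldlr (0.52, SE 0.22) and Gdf15 (0.50, SE 0.23) were also higher on average, with overlap. At an unadjusted p under 0.05, 6 of the 16 were lower and 2 higher.

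The unfolded protein response has 2 further arms, ATF6 and IRE1, which work next to PERK and act mainly on chaperones. Of the 18 tested genes of these arms, 11 were lower and 7 higher, with a median of -0.03. Hspa5 (BiP), the leading chaperone of the endoplasmic reticulum, differed by 0.02 (SE 0.18), and Hsp90b1 by 0.26 (SE 0.22). Ern1, which encodes IRE1 itself, was at 74.4 ± 7.13 and 53 ± 7.23 CPM (-0.49, SE 0.12), and Xbp1, whose total mRNA does not show splicing, differed by -0.27 (SE 0.12). Creld2 went the other way, with 39.7 ± 1.8 and 58.2 ± 12.3 CPM (0.55, SE 0.14).

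Beside these lists stood one of paralogues and one of mTORC1 genes, in which edgeR and DESeq2 called none at an adjusted p under 0.05. At an unadjusted p under 0.05 edgeR gave 5 of them, and 12.6% of all tested genes. Of the paralogues, 2 of 9 tested were lower and 7 higher (median 0.14). Ddit4l, close to Ddit4, was at 1.66 ± 0.26 and 3.14 ± 1.32 CPM (0.92, SE 0.28), Trib2 differed by 0.40 (SE 0.21) and Sesn1 by 0.32 (SE 0.14). Without Nnmt KO mouse a, Ddit4l was at 0.60. In the mTORC1 list 4 of 8 were lower and 4 higher (median 0.00), with Nprl2 at -0.43 (SE 0.14), Mtor at 0.32 (SE 0.14) and Wdr24 at -0.31 (SE 0.12). Nprl2 and Wdr24 belong to the GATOR complexes through which Sesn2 acts.

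**Figure D4:**
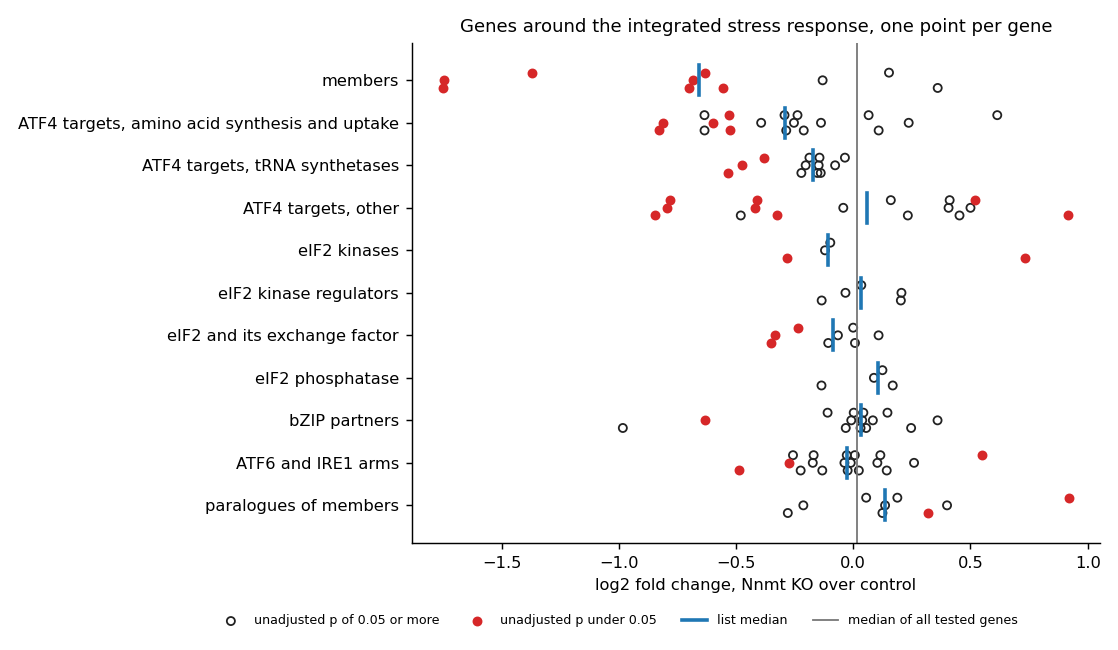
Log2 fold change, Nnmt KO over control (x axis), of the members and of each tested gene in 10 lists around the integrated stress response (rows; 1 point per gene, filled red where the unadjusted p was under 0.05). Medians (blue) lie at -0.66 for the members, -0.29 for amino acid genes and -0.17 for tRNA synthetases, and between -0.11 and 0.14 for the other lists drawn.

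A further question was whether mice with more Atf4 also had more of the other members. Atf4 separated the genotypes, so the relations were computed within them. From each log2 CPM the mean of its genotype was taken, and r over the 8 mice was set against all 576 arrangements of the mice within their genotypes (two-sided exact permutation test). Over the 19 relations, 9 of members to Atf4 and 10 of members to Nnmt, none passed an unadjusted p of 0.05. The smallest adjusted p was 0.676 for Pearson's r and 0.841 for Spearman's rho.

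Atf5 came closest to Atf4 (r = 0.46, exact permutation p = 0.248, adjusted p = 0.949; rho = 0.62, p = 0.135), and without the 2 mice farthest from the median of Atf4 r was -0.04. Trib3, which differed most clearly between genotypes, had a small r with Atf4 within them over all mice (r = 0.09, exact permutation p = 0.849). Its rho was 0.26 (exact permutation p = 0.604). The small r of Trib3 depended on Nnmt KO mouse d, without which it was 0.60 (exact permutation p = 0.215, adjusted p = 0.951). With any other single mouse left out it was between -0.11 and 0.25. Chac1 (r = -0.38), Nupr1 (r = -0.16) and Atf3 (r = -0.45) had negative r, with exact permutation p of 0.469, 0.719 and 0.318. Nnmt KO mouse a stood out here. It had the lowest Atf4 of all mice, 0.19 below its genotype's mean on the log2 scale, and the highest Chac1, Nupr1 and Atf3 of its genotype, 1.24, 0.87 and 0.67 above. Without it, r with Atf4 was 0.32 for Chac1, 0.51 for Nupr1 and 0.08 for Atf3. For Ppp1r15a r went from -0.05 to 0.59 without it, the smallest p of the 19 (exact permutation p = 0.00694, adjusted p = 0.132).

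For Nnmt the largest r were those with Ddit4 (r = 0.74, exact permutation p = 0.0712, adjusted p = 0.676; rho = 0.76, p = 0.0625) and Atf4 (r = 0.73, exact permutation p = 0.0677, adjusted p = 0.676; rho = 0.60, p = 0.177). Without the 2 mice farthest from the median of Nnmt, r was 0.74 for Ddit4 and 0.41 for Atf4. Atf3 was the most opposite (r = -0.67, exact permutation p = 0.113, adjusted p = 0.715; rho = -0.62, p = 0.151), and without the same 2 mice r was 0.33. Trib3 and Nnmt had r = -0.38 (exact permutation p = 0.491), and 0.28 without Nnmt KO mouse d. Without Nnmt KO mouse a, r with Nnmt was 0.87 for Ddit4 (exact permutation p = 0.0417, adjusted p = 0.396). For Atf4 it was then 0.56 (exact permutation p = 0.299, adjusted p = 0.963). With 8 mice only a strong relation could pass, and a p that misses the threshold does not show that there was none.

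The relations depended on the scaling. When counts were scaled by library size alone, 2 of the 19 relations passed an adjusted p of 0.05, those of Atf4 with Atf3 (r = 0.85) and with Ppp1r15a (r = 0.71; exact permutation, adjusted p = 0.0495 for both). Under this scaling r with Atf4 was 0.92 for Ddit3, 0.87 for Nupr1, 0.67 for Trib3 and 0.66 for Chac1, at unadjusted exact permutation p between 0.00868 and 0.0191 and adjusted p of 0.055 to 0.0605. Nupr1, Chac1, Atf3 and Ppp1r15a thereby turned from negative to positive r. The relation of Nnmt to Atf4 turned the other way, to r = -0.41, while that of Nnmt to Ddit4 was 0.63. Some relations thus changed sign with the scaling, while those of Atf4 with Ddit3 and Trib3 and of Nnmt with Ddit4 kept theirs. The TMM factor of Nnmt KO mouse a, 1.21, lay farthest from 1. Without this mouse, and with TMM, no relation passed an adjusted p of 0.05.

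**Figure D5:**
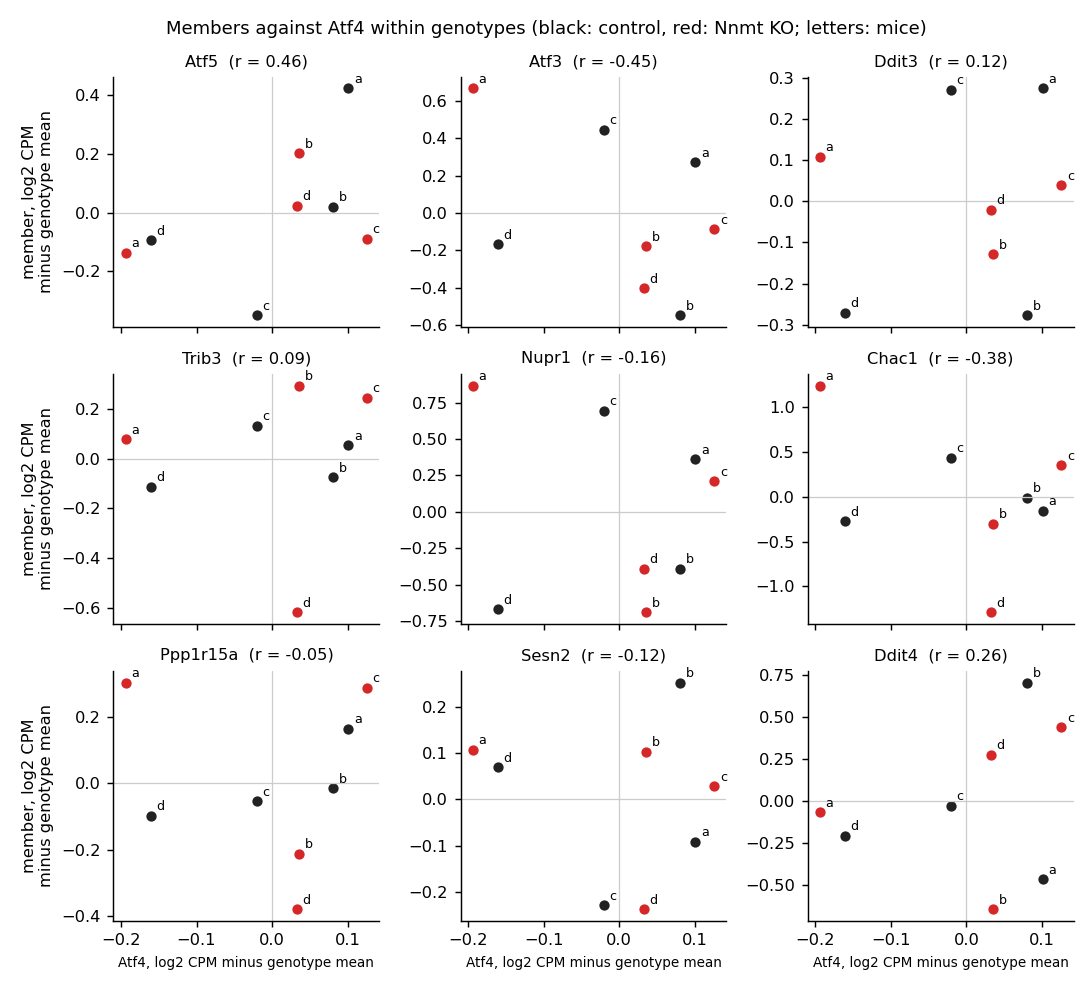
Each member (y axes) against Atf4 (x axes), both as log2 CPM minus the mean of the genotype, for control mice (black) and Nnmt KO mice (red), lettered a to d. With the TMM scaling drawn here no relation passed the test, and Nnmt KO mouse a lies at the far left with high Atf3, Nupr1 and Chac1.

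After TMM scaling, some members shared an order of mice that Atf4 did not share, though under scaling by library size alone most of them followed Atf4 more closely, as given above. Control mice a and c were above control mice b and d for Atf3, Ddit3, Trib3 and Nupr1. Among Nnmt KO mice, mouse a was highest for Atf3, Ddit3, Nupr1, Chac1 and Ppp1r15a, and mouse d lowest for Trib3, Chac1, Ppp1r15a, Sesn2 and Atf3. These are orders of 4 mice and were not tested.

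The genes most like Atf4 within genotypes were sought among 12230 tested genes with a mean of at least 1 CPM, by r over the 8 mice after each genotype's mean was taken off. They were Mvb12a (0.99), Hint2 (0.99), Ict1 (0.99), Psmd13 (0.99) and Kat8 (0.99), none of which is in the lists above. The points share depth and scaling, so that r is given as a description only. Among these genes, 29.5% had a higher r with Atf4 than Atf5 did, and 74.8% a higher r than Atf3 did, and the other members lay between these.

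Markers of other liver cells also differed between the libraries. In bulk tissue, fewer cells of a type and less RNA per cell cannot be told apart. The summed level of 7 stellate cell markers was 310 to 425 CPM in controls and 416 to 596 CPM in Nnmt KO mice, which overlapped slightly. Dcn and Reln made up most of each sum. At an unadjusted p under 0.05, 3 of the 7 were higher: Dcn (0.41, SE 0.16), Reln (0.41, SE 0.18) and Lrat (0.34, SE 0.14). The log2 difference was 0.01 (SE 0.16) for Des, 0.04 (SE 0.26) for Acta2, 0.15 (SE 0.26) for Pdgfrb and 0.26 (SE 0.51) for Col1a1. Markers of T and NK cells (2.02 to 3 CPM against 3.06 to 4.83 CPM) and of B cells (1.09 to 1.65 CPM against 1.7 to 2.43 CPM) were scarce, and their sums did not overlap between genotypes. The 5 cholangiocyte markers summed to 49.9 to 167 CPM in controls and 88.8 to 278 CPM in Nnmt KO mice, the highest in Nnmt KO mouse a. Spp1 made up most of each sum, with 34.8 to 138 CPM in controls and 71.4 to 243 CPM in Nnmt KO mice. The log2 difference was 0.21 (SE 0.33) for Krt19, 0.30 (SE 0.29) for Krt7, 0.04 (SE 0.21) for Sox9 and 0.80 (SE 0.31) for Epcam. Sums of macrophage (338 to 627 against 445 to 624 CPM) and endothelial markers (123 to 237 against 152 to 175 CPM) overlapped. Neutrophil (5.11 to 12.9 against 4.73 to 13.6 CPM), erythroid (618 to 1003 against 589 to 765 CPM) and pancreatic acinar markers (0.77 to 1.11 against 0.89 to 1.5 CPM) overlapped too, and the 3 adipocyte markers had 0 counts in all libraries. Of the 44 tested markers none passed an adjusted p of 0.05 in edgeR. At an unadjusted p under 0.05, 6 were higher and 1 lower (no B cell marker among them). At that threshold 5.45% of all tested genes were higher and 7.13% lower. DESeq2 called 3.32% of all tested genes in either direction, and 2 markers as higher, Cd3g and Cd8a. Their log2 differences were 1.17 (SE 0.36) and 1.44 (SE 0.34). The other T and NK cell markers overlapped between genotypes, with Cd3e at 0.08 (SE 0.52), Nkg7 at 0.47 (SE 0.34) and Ncr1 at -0.23 (SE 0.52). The part of these cells in the members' differences was not tested.

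Atf3 and other early stress genes are known to respond to the handling of animals, and so 2 further lists were read beside the members. The 10 immediate early genes summed to 218 to 286 CPM in controls and 244 to 375 CPM in Nnmt KO mice, with 4 lower and 6 higher. Fosb differed by -1.50 (SE 0.48) at a low level, Nr4a1 by 0.64 (SE 0.30) and Dusp1 by 0.59 (SE 0.33). Without Nnmt KO mouse c these were 0.21 for Nr4a1 and 0.29 for Dusp1, and without control mouse b Dusp1 was at 0.96. The 7 glucocorticoid-induced genes were all higher on average (median 0.43), with sums of 1647 to 3619 CPM in controls and 2487 to 4160 CPM in Nnmt KO mice. Tat made up most of each sum, at 2079 ± 762 CPM in controls and 2881 ± 607 CPM in Nnmt KO mice. Tat, an amino acid catabolic enzyme, differed by 0.47 (SE 0.26), Per1 by 0.45 (SE 0.24) and Sgk1 by 0.43 (SE 0.17). Without control mouse b, Tat was at 0.74 and Per1 at 0.73, while Tat was at 0.30 without control mouse d and Per1 at 0.28 without Nnmt KO mouse c. None of these genes passed an adjusted p of 0.05 in edgeR or DESeq2. An unadjusted p of 0.05 in edgeR was passed by 3 of the 17, and by 12.6% of all tested genes. The part of these genes in the members' differences was not tested.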

How the data were processed

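RNA-seq of liver from 4 Nnmt KO and 4 control mice was used, with 1 library per mouse. The authors aligned paired-end reads with HISAT2, as the paper states, and the submitters' processing notes also name StringTie and mm10, without versions. They deposited whole-number counts per gene for 33212 genes, without normalization. The annotation, the use of strand in counting, and whether a count is a read, a fragment or a value derived from coverage are not given in the sources used here. Reads of overlapping genes could therefore fall to either gene. The paper names the KAPA HyperPrep kit and the labels NEBNext Ultra. All 8 columns of counts were used and 0 were left out. They carry genotype but no mouse number. No pair of libraries agreed within sampling noise (chi-square per degree of freedom 39.9 or more), so each was 1 replicate. P-values measure the spread between these mice only, and no batch is given.

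The filter filterByExpr of edgeR (minimum count 10) passed 15291 genes, which were tested with edgeR 4.0.16 in R 4.3.3 (TMM, quasi-likelihood, genotype as the only term). SEs of log2 fold changes were computed from the F statistic. DESeq2 1.42.0 was an alternative, beside other scalings, no filter, a prior count of 0.5 in place of 2 for log2 CPM in the relations, and each library left out in turn. The tests were first tested on simulated data. Positions and exon lengths came from GENCODE M21 (GRCm38), in which 15146 of the 15291 tested genes were found (99.1%), and promoters from RefSeq, which gave at least 1 for each of the 10 members. No protein sequences were used.

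The members, lists and tests were chosen with earlier results of these data known. Named genes are the members, Nnmt, from each list the genes past an adjusted p of 0.05 and the 3 with the largest log2 fold change in size, and the 5 most like Atf4. Other named genes (Slc3a2, Psat1, Phgdh, Bbc3, Vldlr, Gdf15, Hspa5, Hsp90b1, Il4i1, Mars and the markers of hepatocytes, cholangiocytes, stellate cells, and T and NK cells) were picked after their values were seen.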

Additional observations from a re-analysis of the deposited data

Results flagged for a closer look

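A check for 1 mouse standing apart from the other 3 of its genotype was made for 102 groups, and 7 were past Dixon's 95% limit, where chance gives about 1 in 20, or 5.1. None of the 10 members was among them. Tnfrsf10b was at 5.09 CPM in Nnmt KO mouse a and at 2.19 to 2.62 CPM in the other Nnmt KO mice. Cars was at 28.4 CPM in Nnmt KO mouse c, against 23.1 to 23.6 CPM. Sars was at 142 CPM in Nnmt KO mouse d, against 158 to 160.2 CPM. Nr4a1 was at 20.8 CPM in Nnmt KO mouse c, against 7.78 to 9.9 CPM. Nprl2 was at 17.8 CPM in control mouse b, against 22.1 to 22.9 CPM in the other control mice. Ddit4l was at 2.04 CPM in control mouse c, against 1.5 to 1.58 CPM. The TMM factor of Nnmt KO mouse a was 1.21, and those of Nnmt KO mice b to d were 0.952 to 0.977.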

How the results depend on the processing

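Even Chac1, the rarest member, had 26 counts or more in each library. Counting noise and the spread between mice were not separated. The main limit is the test: edgeR called 1 member and 0 of the 99 pathway genes, DESeq2 called 6 and 11, and the cause was not tested. Over all tested genes edgeR called 0.32% and DESeq2 3.32%. When mice were left out singly, the number of members called by edgeR ran from 0 to 3 and that of pathway genes from 0 to 2. Both were highest without Nnmt KO mouse a, as was the share of all tested genes called (0.963%). Pathway genes lower at an unadjusted p under 0.05 numbered 13 without control mouse a, against 21. All 10 members kept the sign of their log2 fold change under all 12 alternatives, Ppp1r15a only just (-0.23 to -0.02). Nnmt ran from -1.52 to -0.94. Trib3 passed an adjusted p of 0.05 in 9 of the 12. Of the other genes, Cebpb turned to -0.039 without Nnmt KO mouse d, in a range up to 0.54, and Impact to 0.068 without control mouse d, in a range down to -0.29. Scaling by library size moved the median of all genes to 0.07, from 0.02. It took the relations that passed from 0 to 2 of 19, and no other alternative for the relations gave any. No paired analysis was possible because the columns of the count table carry no mouse numbers, although the labels of both genotypes share the numbers 4 and 5.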
